A study of Mus musculus with 20 samples.

Results

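The mRNAs of the cytosolic ribosomal proteins were followed through all 20 libraries of a study of cultured mouse macrophages. Members were the genes whose symbol follows the Rpl or Rps naming of the large and small subunit, with the stalk proteins Rplp0 to Rplp2 and Rpsa. There were 88 such genes of 52636 listed, 52 of the large and 36 of the small subunit. The symbol rule itself used no measured value, but it was chosen with earlier results of these data known. The cells were macrophages grown from mouse fetal liver (E14.5 in the series text and E14.4 in the growth protocol) over 6 days in medium conditioned by L cells. Of the 5 animals, 2 were controls of genotype Csf1r-iCre.HuR+/+ (WT-280 and WT-281). The other 3 were labelled conditional knockouts, Csf1r-iCre.HuRfl/fl (animals KO-179, KO-94 and KO-84). All 5 carried the Csf1r-iCre transgene, which drives recombination in cells of the macrophage lineage, and EGFP fused to ribosomal protein L10a. Cultures from every animal stayed in normoxia (20% O2, 5% CO2) or in hypoxia (1% O2, 5% CO2) for 18 h. Each lysate was divided into total RNA (input) and RNA bound to the tagged ribosomes (TRAP), and both were sequenced as poly(A) libraries.

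Each ribosome holds a single copy of nearly all its proteins, so their mRNAs are made in large and balanced amounts. In vertebrates these mRNAs begin with a terminal oligopyrimidine (TOP) tract of C and T residues next to the cap, through which the mTORC1 kinase and the RNA-binding protein LARP1 set how many ribosomes each mRNA carries. Low oxygen is known to reduce mTORC1 activity and translation of TOP mRNAs in other cells. The large subunit forms peptide bonds and the small subunit reads the codons, and L10a is a protein of the large subunit, so the tag sits on the same machinery whose mRNAs are described here.

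Runs of C and T were sought in the start regions that RefSeq gives for 63 of the 88 members (build GRCm38.p6). A run of at least 8 C or T on the gene's own strand, within 25 bases before to 50 bases after the annotated start, was present in 49 of these 63 (77.8%) and in 30.4% of all 27025 genes of the table. It was found in 82.1% of the 39 large and 70.8% of the 24 small subunit members with an entry. The shorter motif CTTTCC, which is made of C and T and so can lie inside such a run, was present on the gene's strand in 28.6% of the members against 4.09% of all genes, and on the other strand in 3.17% against 4.02%. These matches describe letters near an annotated start, and not a measured start of transcription or a tract shown to lie next to the cap. The windows of 30 bases below run 5′ to 3′ on the gene's strand, and capitals mark the longest run of C and T (in Rps27l, the first of equal runs). The first 8 belong to members that were higher in TRAP than in input when animals were matched, Rpl10a encodes the tagged protein, and Rplp0 had one of the lowest TRAP to input ratios.
Rpl9: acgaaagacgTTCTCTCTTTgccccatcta
Rpl35: gccccgCCCTTTCCTCTTTCTCTCgaacca
Rps27: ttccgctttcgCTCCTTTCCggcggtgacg
Rps19: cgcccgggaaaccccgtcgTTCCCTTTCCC
Rpl23: gagtgggcggggCCTCCCgttcatatccca
Rps27l: ccccgcctccaCTCCTCTCCactcctcccc
Rpl31: ctcgccacaCCTCTTCCTCCTCgcctcccc
Rps15: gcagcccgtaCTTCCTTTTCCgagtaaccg
Rpl10a: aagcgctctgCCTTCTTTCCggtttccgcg
Rplp0: aggaccgcctggTTCTCCTataaaaggcac

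The windows lie at chr5:65391383-65391412, chr2:39005115-39005144, chr3:90213632-90213661 and chr11:97782404-97782433 on the minus strand and at chr7:24884612-24884641, chr9:66946053-66946082, chr1:39367824-39367853, chr10:80292446-80292475, chr17:28328572-28328601 and chr5:115559466-115559495 on the plus strand. The longest run was 18 bases, in Rpl35, which encodes a protein near the peptide exit tunnel. In Rpl23 and Rplp0 it was 6 and 7 bases. The first base of the marked run lay from -22 (Rps27l) to 40 (Rps19) relative to the annotated start. In Rps27l an unmarked run of equal length follows the marked one, nearer that start. The capitals therefore do not all mark a tract next to that start.

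Values were TPM (a length-corrected transcript share that sums to 1000000 in each library), so depth is unknown and a level is relative to the other mRNAs of the same library. Elavl1, the gene of HuR, did not separate the genotypes: in normoxia input it was 47.3 and 25.9 TPM in the controls and 40.1, 154 and 43.0 TPM in the other 3. These are therefore called knockout-labelled, and values are given in the order WT-280, WT-281 for controls and KO-84, KO-94, KO-179 for knockout-labelled animals. All 6 macrophage markers were expressed (summed level 5440.0 to 18083 TPM). Of 7 erythroid markers, 1 reached 1 TPM in 2 libraries and 4 were at 0 throughout. Of 4 neutrophil markers, the granule genes Elane and Mpo were at 0, and S100a8 and S100a9 reached 29.9 and 4.71 TPM. The 4 hepatoblast markers summed to at most 33.0 TPM. The 4 megakaryocyte markers summed to 1620.1 to 18384 TPM, nearly all of it Pf4 (1608 to 18321 TPM), a chemokine gene that macrophages also express. Fibroblast markers summed to 82.0 to 564 TPM in input and 4.64 to 144 TPM in TRAP. The input libraries of WT-280 in hypoxia, with the fewest genes at 1 TPM among inputs (10364), and of KO-84 in normoxia, with the most mitochondrially encoded mRNA (4.75%), stood apart from the rest.

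The 88 members made up a mean of 9.86% of all TPM. Subunit proteins whose symbols fall outside the naming rule, such as Fau (mean 1253 TPM) and Rack1 (833 TPM), are not in this sum. Of the 88 members, 79 had a mean of at least 100 TPM, 46 had at least 1000 TPM, and 24 were among the 100 most abundant of all genes. The 77 members left after 11 paralogs and copies are set aside had means from 175 TPM (Rps15a) to 4384 TPM (Rps29), around a median of 1107 TPM with quartiles of 693 and 1394 TPM. Their proteins are nearly all present once per ribosome, and the mRNA levels were not equal. The median was 1006 TPM over 46 large and 1146 TPM over 31 small subunit members. The genes lay on 19 chromosomes.

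The 6 highest members carried 21.6% of the summed level. Rps29, a zinc-binding protein of the small subunit head, had a mean of 4384 TPM and ranged from 874 to 10818 TPM over the 20 libraries. Rpl32, of the large subunit, had 4287 TPM (1302 to 7575). Rplp1, an acidic protein of the stalk that recruits translation factors, had 3623 TPM (1388 to 5899.8). They were followed by Rps27 with 3447 TPM, Rps14 with 2856 TPM and Rps19, the gene most often mutated in human Diamond-Blackfan anaemia, with 2719 TPM. The ranges of neighbours in this order overlapped widely, so their order is not fixed by these libraries.

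Members with other known duties ranged from 397 to 1394 TPM. Rplp0, the scaffold of the stalk, had a mean of 1380.5 TPM, and its partner Rplp2 had 1222 TPM. Rps27a, which is made as a fusion with ubiquitin, had 1394 TPM. Rps6, the substrate of the ribosomal S6 kinases, had 693 TPM, and Rps3, which lines the mRNA entry channel, had 648 TPM. Rpl5 and Rpl11, which bind MDM2 when ribosome assembly fails, had 397 and 549 TPM. Rpl13a, part of a translation-silencing complex in human monocytes, had 668 TPM and Rpsa, also known as a laminin receptor, had 554 TPM.

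The paralogs were mostly low, with 2 exceptions. Rps27l, a p53-responsive paralog of Rps27, had a mean of 2142 TPM against 3447 TPM for its parent. Rpl22l1 had 251 TPM against 324 TPM for Rpl22, and both encode the same position in the large subunit. Rpl7l1 had 60.6 TPM against 657 TPM for Rpl7. Rps4l had 37.2 TPM against 983 TPM for the X-linked Rps4x, and the germ-cell paralog Rpl39l had 11.2 TPM against 992 TPM for Rpl39. Rps3a3, Rpl6l and Rps3a2 had 15.3, 4.401 and 2.24 TPM. Rpl3l, the muscle paralog of Rpl3, did not exceed 0.781 TPM in any library, Rps12l1 did not exceed 0.821 TPM, and Rpl10l, a testis paralog of Rpl10, was listed at 0 in all 20. These 3 failed the minimum of 1 TPM in 2 libraries, which left 85 members for testing.

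**Figure D1:**
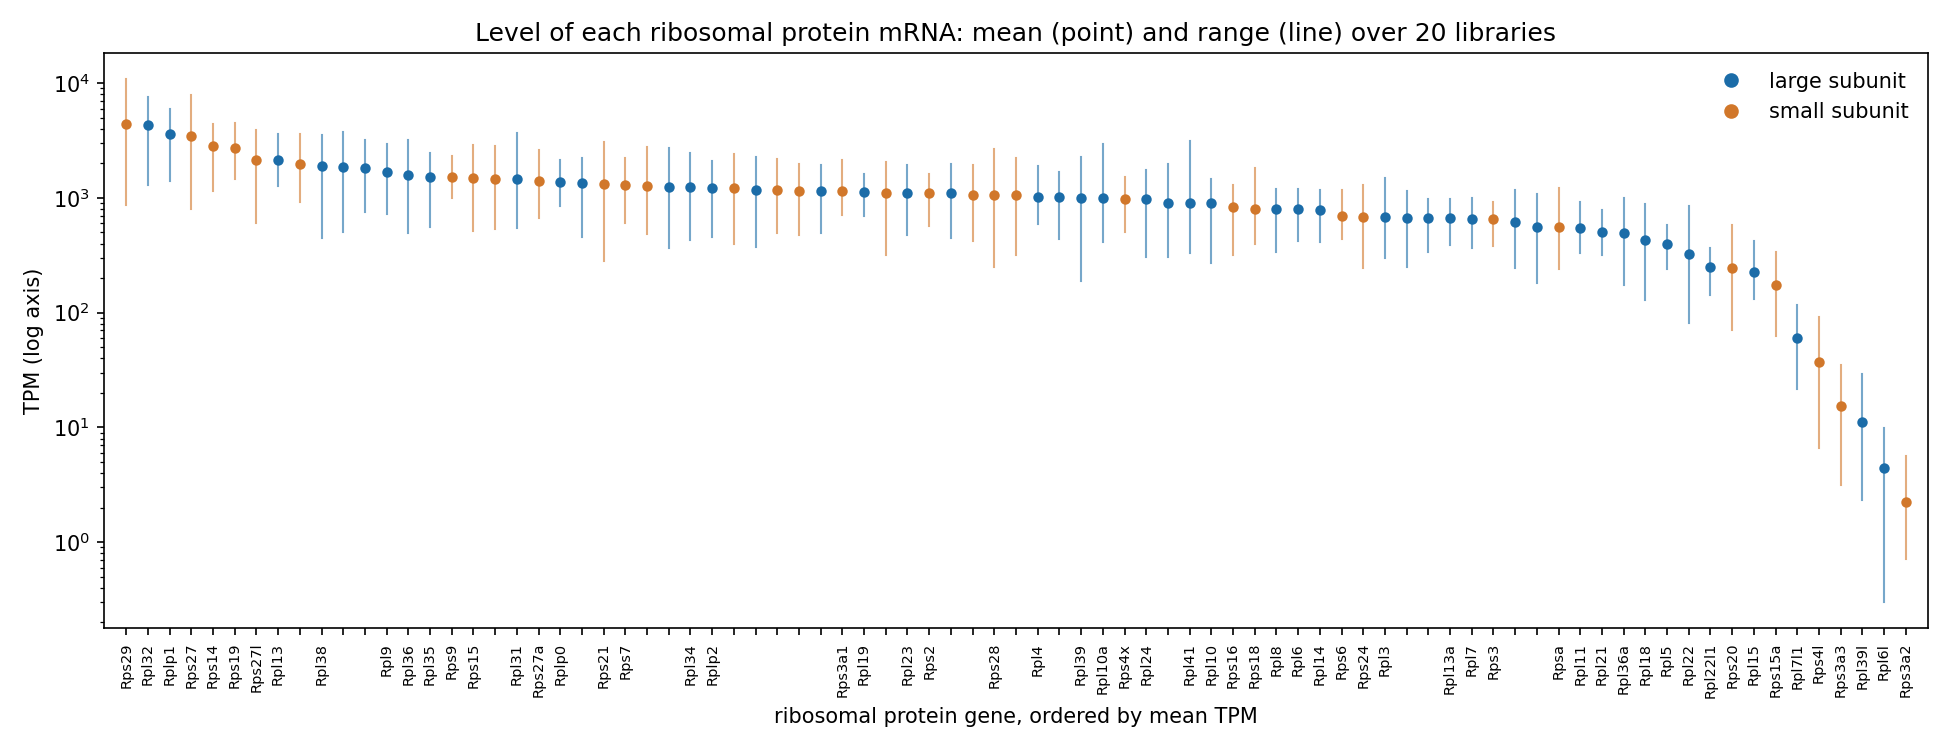
Plotted are 83 of the 85 tested members, ordered by mean TPM on a log axis and labelled where the text names them, with a point for the mean and a line for the range over 20 libraries, coloured by subunit. Most members lie between 175 and 4384 TPM, and 6 paralogs form the low tail on the right.

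Read assignment between a member and its processed copies is uncertain. The 276 listed ribosomal protein pseudogenes together held 0.0299 to 0.303% of TPM. For 60 members with a pseudogene row, these rows summed to a median of 1.205% of the parent's mean. They exceeded 5% for 11 members and were highest for Rps15a (32.2%), Rpl36a (13.6%) and Rps16 (11.7%). For Rpl10a the figure was 8.42%.

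The summed level differed widely between animals within every setting. In normoxia input it was 8.23% and 9.83% in controls against 11.2%, 4.73% and 10.1% in knockout-labelled animals. In hypoxia input it was 6.31% and 10.1% in controls against 10.3%, 5.71% and 10.2% in knockout-labelled animals. Within input, KO-94 had the lowest value in both conditions, with WT-280 next above it. In normoxia TRAP the summed level was 7.59% and 10.9% in controls against 16.6%, 9.91% and 9.33% in knockout-labelled animals. In hypoxia TRAP it was 4.93% and 13.7% in controls against 16.9%, 10.3% and 10.2% in knockout-labelled animals. WT-280 was lowest and KO-84 highest in TRAP in both conditions, and controls and knockout-labelled animals overlapped in all 4 settings. A lower share can come from less ribosomal protein mRNA or from more of other mRNAs, and in bulk RNA fewer cells of a type and less RNA per cell cannot be told apart.

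**Figure D2:**
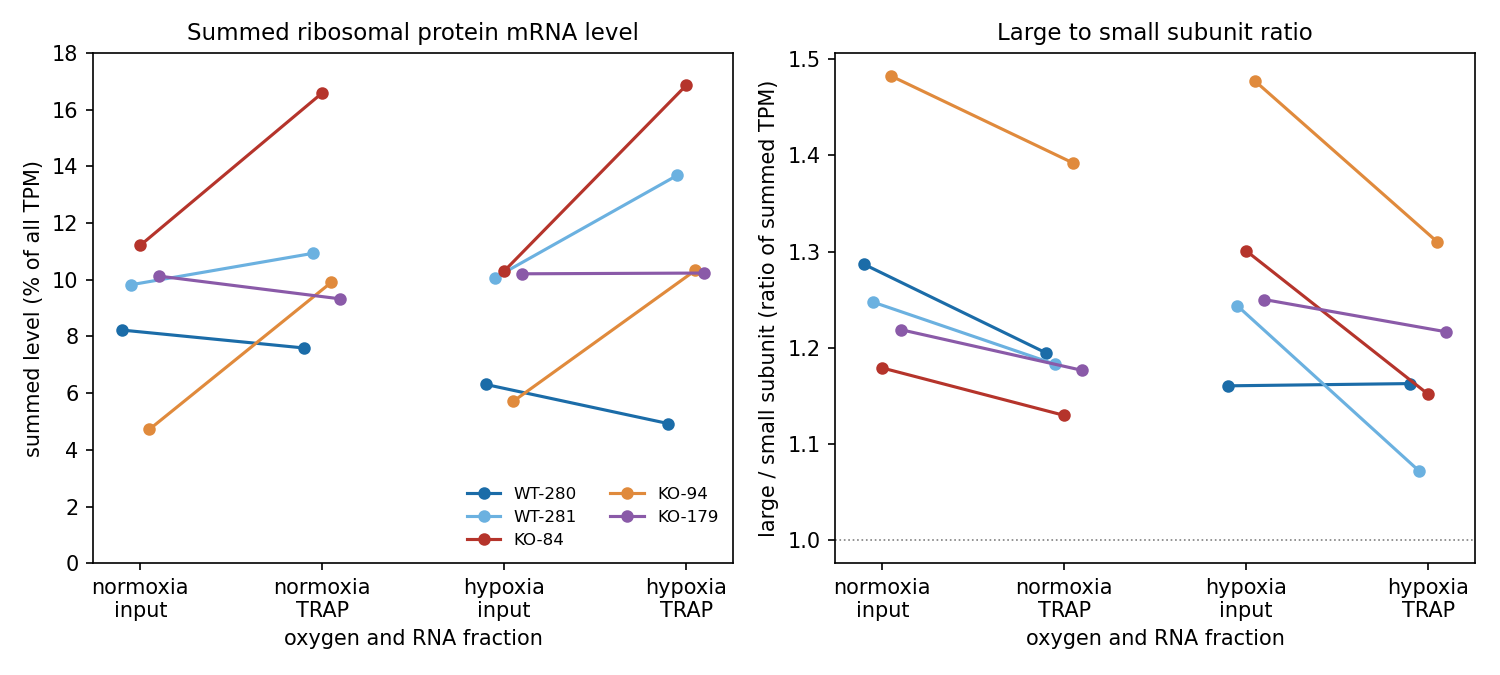
Left, the summed level of the 88 members as a percentage of all TPM, and right, the ratio of summed large to summed small subunit TPM. Each point is a library, coloured by animal, and lines join input and TRAP of the same animal and oxygen level. The summed level spans 4.73% to 16.9%, and the ratio is highest in KO-94 in all 4 settings.

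Single members followed their animals. In normoxia input, KO-94 had the lowest of the 5 values for 71 of 85 members, against 14.9% of all 13901 genes tested. In hypoxia input it was lowest for 52 members, against 12% of genes, while WT-280 was lowest for 29, against 44.5%. KO-94 input also had the highest of the 5 values for 50.9% of all genes in normoxia and 53.5% in hypoxia. Its input libraries thus differed from the others well beyond the members. In TRAP, KO-84 had the highest value for 64 members in normoxia (against 10.7% of 13522 genes) and 58 in hypoxia (against 9.06%). WT-280 had the lowest TRAP value for 75 members in hypoxia, against 28.3% of genes.

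Members differed in how much they varied. Over the 20 libraries the SD of log2(TPM + 1) had a median of 0.588 for the 81 members with a mean of at least 20 TPM, against 0.663 for all 4159 such genes. The smallest SDs were 0.327 for Rps9, 0.340 for Rpl19, 0.345 for Rpl5, 0.346 for Rpl22l1 and 0.351 for Rplp0. The largest were 1.01 for Rpl39, 0.974 for Rps21, 0.950 for Rps27, 0.945 for Rps29 and 0.906 for Rps28, and these 5 encode some of the shortest ribosomal proteins. Rps9, a core protein of the small subunit, ranged from 1003 to 2318 TPM. Rpl39, a small protein of the exit tunnel, ranged from 188 to 2263 TPM, with its lowest input value in KO-94 in normoxia and its lowest TRAP value in WT-280 in hypoxia.

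Most members shared one profile across libraries, with the exceptions below. Pearson's r between a member and the mean log2 profile of the 85 tested members, over 20 libraries that share animals and totals, had a median of 0.89 and was above 0.5 for 73 of 85. It was 0.97 for Rpl32, one of the most abundant members. This is a description, since each member is part of the mean. Rpl7l1 (-0.70) and Rps4l (-0.54) ran opposite to it. Rpl3 (0.020), which lies near the peptidyl transferase centre, Rpl39l (0.037), Rpl4 (0.044), Rpl41 (0.048) and Rpl10a (0.056) were nearly unrelated to it. Rpl3 and Rpl4 had their highest value of all libraries in KO-94 in hypoxia TRAP (1498 and 1894 TPM), as Rpl10a did.

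Rpl10a, whose protein carries the tag, stood apart in one animal (chr17:28328471-28331033, GRCm38.p6, whole gene). In normoxia input it was 625 and 711 TPM in controls against 694, 1558 and 554 TPM in knockout-labelled animals. In hypoxia input it was 411 and 553 TPM in controls against 1046, 1514 and 591 TPM in knockout-labelled animals. KO-94 was highest in both, and above every library of the other animals. In normoxia TRAP the level was 582 and 600.2 TPM in controls against 1012, 2691 and 702 TPM in knockout-labelled animals. In hypoxia TRAP it was 477 and 635 TPM in controls against 1024, 2971 and 812 TPM in knockout-labelled animals. In the 4 libraries of KO-94, Rpl10a made up 4.44% to 5.52% of the summed large subunit level, against 0.897% to 1.80% in the 16 libraries of the other animals. The tables do not separate reads of the EGFP-L10a transgene from those of the endogenous gene.

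Knockout-labelled animals had more Rpl10a on average, by 0.34 ± 0.516 (log2, ± SE) in normoxia input and 1.04 ± 0.516 in hypoxia input, and by 1.07 ± 0.617 and 1.29 ± 0.617 in TRAP at the same oxygen levels. The groups overlapped in normoxia input and not in the other 3 settings. None passed an adjusted p of 0.05 in limma (adjusted p = 1, 0.736, 0.922 and 1). Without KO-94 the differences were -0.10, 0.72, 0.51 and 0.73. Its hypoxia change over 5 animals was -0.13 ± 0.365 in input and 0.010 ± 0.437 in TRAP, and neither passed (adjusted p = 0.999 and 1.00). Quantile normalization turned the TRAP value to -0.0038.

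The balance of the subunits shifted between the RNA fractions. The ratio of summed large to summed small subunit TPM in normoxia was 1.29 and 1.25 in controls against 1.18, 1.48 and 1.22 in knockout-labelled animals for input. In normoxia TRAP it was 1.19 and 1.18 in controls against 1.13, 1.39 and 1.18 in knockout-labelled animals. TRAP was below input in all 5 animals. In hypoxia the ratio was 1.16 and 1.24 in controls against 1.30, 1.48 and 1.25 in knockout-labelled animals for input. In hypoxia TRAP it was 1.16 and 1.07 in controls against 1.15, 1.31 and 1.22 in knockout-labelled animals. TRAP was below input in every animal but WT-280, which makes 9 of 10 pairs. It was lower in 10 of 10 pairs without Rpl10a. Without Rpl10a, KO-94 still had ratios of 1.24 to 1.41, against 1.06 to 1.28 in the other animals. No p-value is given for this ratio, since it sums members whose values share the library total. The hypoxia libraries had the lower ratio in 3 of 5 animals in input and 3 of 5 in TRAP. Without Rpl10a they had the lower ratio in 1 of 5 animals in input and 3 of 5 in TRAP, so the direction in input depended on that gene.

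The comparison of TRAP with input asks which mRNAs were more or less abundant on the tagged ribosomes than in total RNA. Ribosomal protein mRNAs were slightly higher in TRAP, with a median difference of 0.20 (log2) over 85 members against -0.19 over all 14842 genes tested and 0.095 over the 1183 genes of at least 100 TPM. The difference was above 0 for 74 of 85 members, against 31.8% of all genes and 59.8% of the abundant ones. Large and small subunit members had medians of 0.19 and 0.24. The animals were far apart. In normoxia the median over members was -0.21 in WT-280, 0.011 in WT-281, 0.48 in KO-84, 1.01 in KO-94 and -0.16 in KO-179. In hypoxia it was -0.36, 0.27, 0.64, 0.86 and -0.062 in the same order. In KO-94 in normoxia, 84 of 85 members were higher in TRAP, while in WT-280 in hypoxia 67 were lower. Leaving out 1 animal moved the median over members between 0.067 (without WT-281) and 0.31 (without KO-179).

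**Figure D3:**
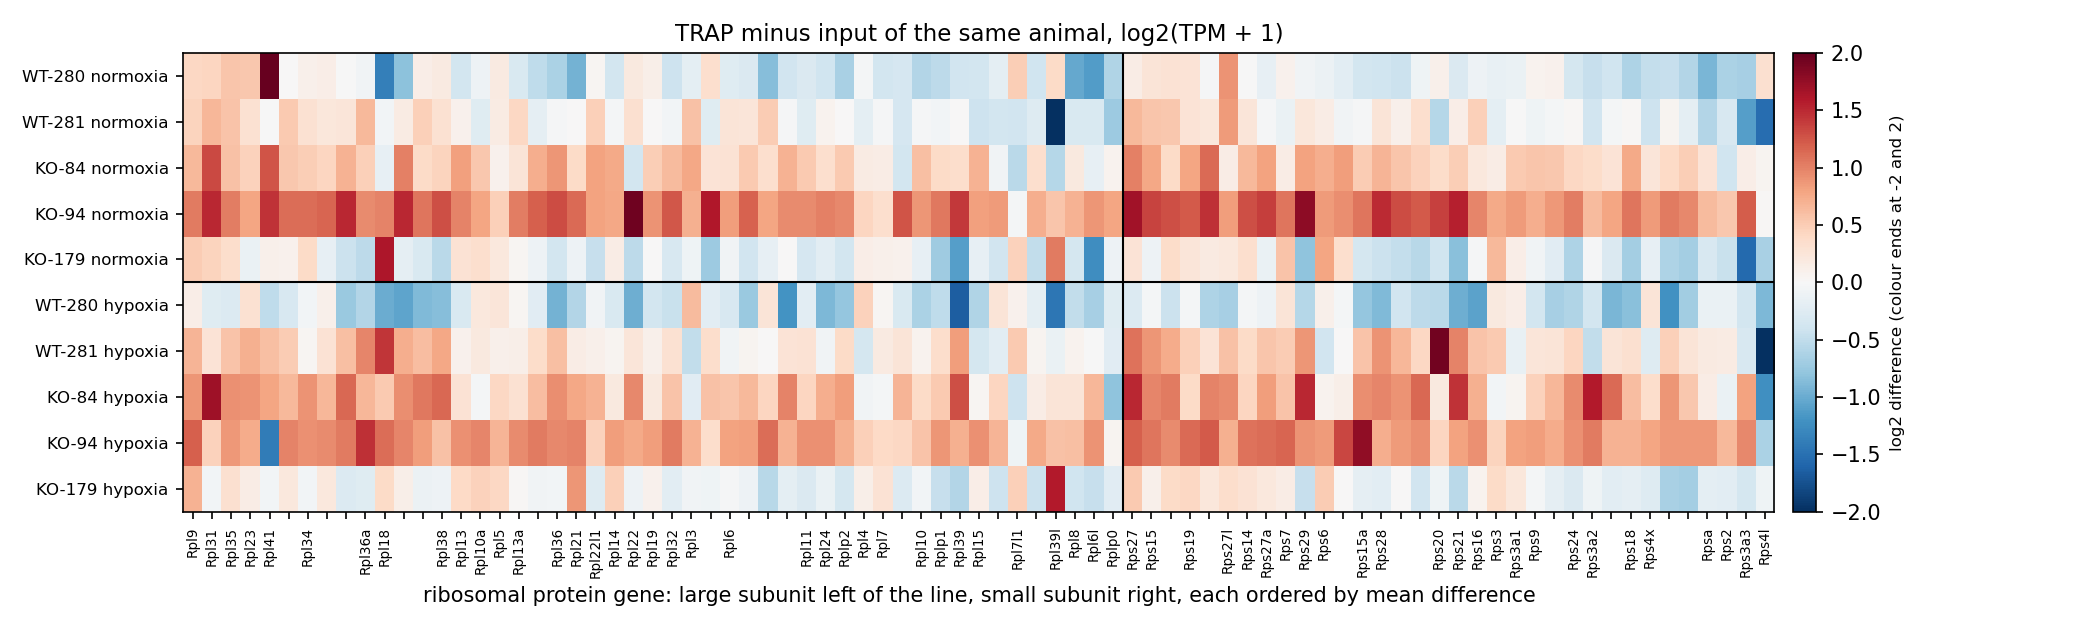
Each cell is the difference of log2(TPM + 1) between TRAP and input of the same animal and oxygen level (10 rows) for 1 of 83 of the tested members (columns, labelled where the text names them). Red means higher in TRAP. KO-84 and KO-94 are red for most members, and WT-280 and KO-179 are mostly blue or pale.

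In the fit without the animal as a block, no member passed an adjusted p of 0.05 in limma in either direction (background 0.0337% of genes higher and 0.654% lower), and 4 were higher (background 2.1%) and 0 lower (background 10.5%) at an unadjusted p under 0.05. With the animal as a block, which the matched lysates allow, 9 of 85 members were higher in TRAP and 0 lower, which is 10.6% of the members. The block allows for an animal's mean level, but its normoxia and hypoxia pairs still count as independent. The 10 pairs come from 5 animals, most with similar TRAP to input differences at both oxygen levels, so p-values with the block may be too small. The background was 1.55% of all genes higher and 5.89% lower, but 14% higher among genes of at least 100 TPM. The members' share was therefore not above that of other abundant mRNAs. The count rested on single animals. It was 6 without WT-280, 1 without WT-281, 1 without KO-84, 0 without KO-94 and 10 without KO-179. Beside it, 4 of 6 fibroblast markers and 2 of 6 macrophage markers (Csf1r and Adgre1, by -0.71 and -0.72) were lower in TRAP with the block, mitochondrially encoded mRNA was 1.26 to 4.75% of input and 0.0298 to 0.861% of TRAP, and their part in the result was not tested.

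Rpl9, a large subunit protein near the factor-binding stalk base, had the smallest p. In normoxia its input level was 1099 and 1401 TPM in controls against 1838, 727 and 1542 TPM in knockout-labelled animals. Its normoxia TRAP level was 1462 and 1914 TPM in controls against 2883, 1503 and 2205 TPM in knockout-labelled animals. TRAP was higher in all 5 animals. In hypoxia the input level of Rpl9 was 843 and 1472 TPM in controls against 1595, 841 and 1537 TPM in knockout-labelled animals. Its hypoxia TRAP level was 921 and 2349 TPM in controls against 2928, 1933 and 2488 TPM in knockout-labelled animals. TRAP was higher in 10 of 10 pairs, by 0.62 ± 0.116 (log2, ± SE) with the block (limma adjusted p = 0.00641) and with an adjusted p of 0.294 without it. Rpl9 and Rpl5 were the 2 members higher in every pair, against 0.761% of genes.

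Among the others that passed with the block, Rpl35 was higher by 0.52 ± 0.110 (adjusted p = 0.0118) and in 9 of 10 pairs. Rps27 was higher by 0.72 ± 0.173 (adjusted p = 0.0220). Rps19 was higher by 0.47 ± 0.115 (adjusted p = 0.0233) and in 9 of 10 pairs. These 3 belong to different parts of the ribosome, with Rpl35 at the exit tunnel and Rps19 in the head of the small subunit. Rpl23, which lies at the subunit interface, gave 0.47 ± 0.116 (adjusted p = 0.0240) and Rps27l gave 0.48 ± 0.123 (adjusted p = 0.0291). Rpl31 gave 0.59 ± 0.165, Rps15 gave 0.55 ± 0.157 and Rps14 gave 0.41 ± 0.121 (adjusted p = 0.0420, 0.0439 and 0.0489). WT-280 in hypoxia was below 0 for 7 of these 9 members.

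**Figure D4:**
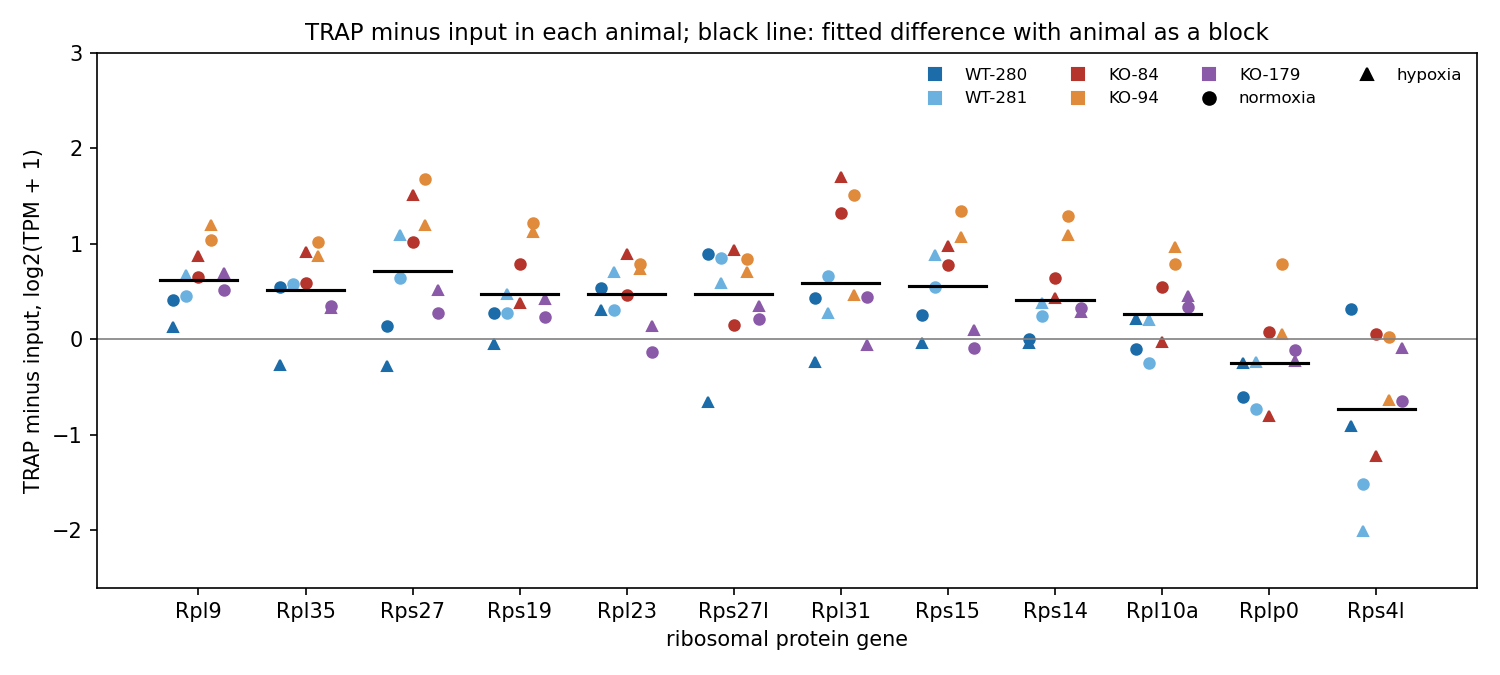
Points give TRAP minus input of log2(TPM + 1) in each animal, in normoxia (circles) and hypoxia (triangles), for the 9 members that passed with the animal as a block and for Rpl10a, Rplp0 and Rps4l, and black lines give the fitted difference. Rpl9 is above 0 in 10 of 10 pairs, and KO-94 and KO-84 hold most of the highest points.

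At the other end, Rplp0 went against the majority, with a difference of -0.24 ± 0.171 (adjusted p = 0.582, 0.216 with the block), and was higher in TRAP in 3 of 10 pairs. In hypoxia its input level was 1128 and 1475 TPM in controls against 2116, 1765 and 1438 TPM in knockout-labelled animals. Its hypoxia TRAP level was 952 and 1254 TPM in controls against 1214, 1835 and 1233 TPM in knockout-labelled animals. Only KO-94 had more in TRAP. Rps4l had the lowest difference of the tested members, -0.72 ± 0.384 (adjusted p = 0.442, 0.0633 with the block). Its hypoxia input level was 92.5 and 29.4 TPM in controls against 50.2, 44.7 and 48.5 TPM in knockout-labelled animals, and its hypoxia TRAP level was 48.9 and 6.56 TPM in controls against 20.9, 28.3 and 45.6 TPM in knockout-labelled animals. It was lower in TRAP in 5 of 5 animals in hypoxia, the only such member, against 8.18% of genes. Rpl8, of the peptidyl transferase region, gave -0.13 ± 0.203 (adjusted p = 0.837).

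By oxygen level, the median TRAP minus input difference of the members was 0.18 in normoxia (69 of 85 above 0, against 29.1% of genes) and 0.21 in hypoxia (80 of 85, against 41.1%). Of the genes of at least 100 TPM, 58.6% were above 0 in normoxia and 56.7% in hypoxia, with medians of 0.12 and 0.064. No member passed in either without the block (background 0% higher in both, 0.229% lower in normoxia and 0.0876% in hypoxia), and 1 in normoxia, higher, and 0 in hypoxia had an unadjusted p under 0.05. The share of all genes at that threshold was 1.27% higher and 8.6% lower in normoxia and 1.29% higher and 3.91% lower in hypoxia. With the block, Rpl35 passed in normoxia (0.61 ± 0.155, adjusted p = 0.0468, background 0.633% higher and 2.56% lower) and none in hypoxia (background 0.0202% higher and 0.391% lower). Among genes of at least 100 TPM these shares were 6.34% higher and 4.65% lower in normoxia and 0% and 1.86% in hypoxia. In hypoxia 12 members were higher and 1 lower at an unadjusted p under 0.05 with the block (background 3.5% and 8.83%). Of the 1183 genes of at least 100 TPM, 158 were higher and 118 lower at that threshold. The members' share higher was thus close to that of other abundant mRNAs. Without the block, the highest t value in normoxia (t is the difference over its error) was that of Rpl41, whose product is the shortest ribosomal protein, followed by Rps19 (0.51 ± 0.264) and Rpl31 (0.82 ± 0.427). Its normoxia TRAP level was 2074 and 669 TPM in controls against 939.5, 3121 and 576 TPM in knockout-labelled animals, and its normoxia input level was 463 and 672 TPM in controls against 391, 1139.5 and 536 TPM in knockout-labelled animals. The difference of 1.01 ± 0.480 did not pass (adjusted p = 0.504), and WT-280 and KO-94 had the highest TRAP levels. At the lower end in normoxia, Rps2 gave -0.29 ± 0.289 and Rpsa gave -0.28 ± 0.317, and in hypoxia Rpl15 gave -0.057 ± 0.261. At the upper end in hypoxia, Rps7 gave 0.51 ± 0.278 and was higher in 5 of 5 animals.

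No change of the TRAP to input ratio with hypoxia was detectable among the members. The median change was 0.032 over members, 0.16 over all genes and -0.051 over genes of at least 100 TPM. No member passed in limma, and 0 had an unadjusted p under 0.05, also with the block. Of 14842 genes tested, 275 were higher and 78 lower at that threshold without the block, and 688 and 219 with it. Rpl41 had the lowest value, -1.09 ± 0.679, and Rpsa the largest upward t, 0.42 ± 0.448 (adjusted p = 1.00 and 1.00). The others at the ends were Rpl21 (0.34 ± 0.362), Rps2 (0.35 ± 0.409), Rps4l (-0.66 ± 0.768) and Rpl31 (-0.46 ± 0.604).

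The comparison of hypoxia with normoxia asks whether low oxygen changed ribosomal protein mRNA in total or ribosome-bound RNA. No member passed in limma in any of the 6 fits of hypoxia, in controls, in knockout-labelled animals or over 5 animals, in input or in TRAP. At an unadjusted p under 0.05 without the block the count was 0 in each, against 0.360% to 2.67% of genes in 1 direction. The background was 0% of genes in each fit. With the block none passed after adjustment. At an unadjusted p under 0.05 with the block, 5 members were higher and 0 lower in knockout-labelled input (background 2.1% and 1.47%), and 0 higher and 4 lower in control input (background 1.96% and 8.84%). In TRAP, 1 was higher and 1 lower in controls (background 4.73% and 3.68%), and 1 was higher and 0 lower over 5 animals (background 4.15% and 2.84%). Knockout-labelled TRAP had 0, where 224 of 13522 genes were higher and 166 lower. Input over 5 animals had 0, where 328 of 13901 genes were higher and 988 lower. Over 5 animals the median change was -0.085 in input and -0.024 in TRAP, against -0.15 and 0.013 over all genes. Over genes of at least 100 TPM it was 0.057 and 0.0024. In control input the median was -0.21 over members, -0.27 over all genes and 0.028 over genes of at least 100 TPM. Leaving out 1 animal gave medians over members and 5 animals of -0.19 to 0.025 in input and -0.25 to 0.19 in TRAP. Within input, the median over members was -0.42 in WT-280, close to that of all genes of any level there, 0.045 in WT-281, -0.15 in KO-84, 0.23 in KO-94 and 0.014 in KO-179. Within TRAP it was -0.54 in WT-280, 0.28 in WT-281, 0.066 in KO-84, 0.080 in KO-94 and 0.15 in KO-179. The 2 control animals thus moved in opposite directions in TRAP, with 81 of 85 members lower in WT-280 and 64 higher in WT-281. In KO-94 input, 79 of 85 were higher in hypoxia.

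**Figure D5:**
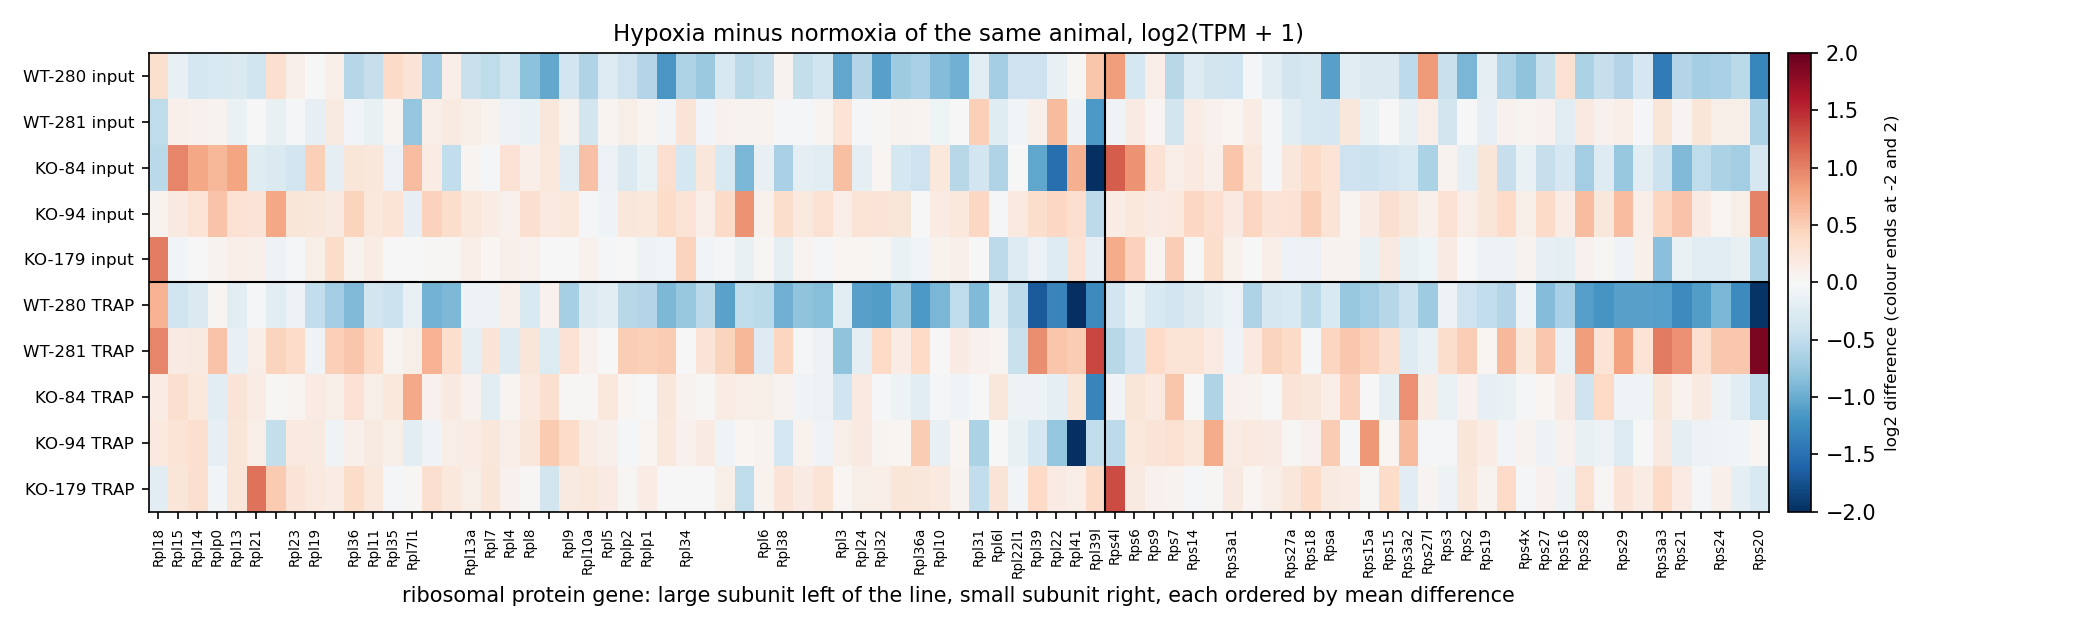
Each cell is the difference of log2(TPM + 1) between hypoxia and normoxia of the same animal, for input (upper 5 rows) and TRAP (lower 5 rows), in 1 of 83 of the tested members (columns, labelled where the text names them). Blue means lower in hypoxia. WT-280 is blue for most members in both fractions, 81 of 85 in TRAP, while WT-281 is mostly red in TRAP and pale in input.

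Rps4l, Rps6 and Rpl15 had the highest t values in input over 5 animals. The difference for Rps6 was 0.22 ± 0.256 over 5 animals (adjusted p = 0.999), and 0.52 ± 0.324 in knockout-labelled animals, where it was higher in 3 of 3. Its knockout-labelled levels were 459, 563 and 507 TPM in normoxia and 859.8, 652 and 695 TPM in hypoxia. Rps4l gave 0.54 ± 0.384 and Rpl15 gave 0.17 ± 0.276. The lowest t values were those of Rpl39l (-0.62 ± 0.564), Rps20 (-0.48 ± 0.470) and Rpsa (-0.25 ± 0.270). In control input Rpsa gave -0.71 ± 0.419 and did not pass, with levels of 555 and 607 TPM in normoxia and 262 and 478 TPM in hypoxia. Rps20 gave -0.96 ± 0.727 there, and Rps27l (0.48 ± 0.656), Rps4l (0.38 ± 0.595) and Rpl35 (0.22 ± 0.551) were at the upper end. In knockout-labelled input Rplp0 gave 0.43 ± 0.333 and was higher in 3 of 3 animals, Rps4l gave 0.70 ± 0.486, and Rpl39l (-0.95 ± 0.714), Rpl22 (-0.45 ± 0.710) and Rps24 (-0.28 ± 0.513) were at the lower end. A total of 25 of 85 members were higher in 3 of 3 animals there.

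In TRAP over 5 animals, Rpl18 had the highest t value, 0.44 ± 0.448 (adjusted p = 1.00), and was higher in 4 of 5 animals. Its normoxia level was 129 and 451 TPM in controls against 628, 384 and 554 TPM in knockout-labelled animals. Its hypoxia level was 209 and 885 TPM in controls against 698, 439.7 and 478 TPM in knockout-labelled animals. In controls alone the difference was 0.83 ± 0.694. Rpl41 had the lowest, -0.89 ± 0.507 (adjusted p = 1.00). It was lower in WT-280 and KO-94 and higher in the other 3 animals. Rpl22l1 was lower in 5 of 5 animals, with a difference of -0.29 ± 0.288, which did not pass (adjusted p = 1.00, 0.728 with the block). Its normoxia levels were 317 and 363 TPM in controls against 328, 252 and 226 TPM in knockout-labelled animals, and its hypoxia levels were 220.1 and 267 TPM in controls against 304, 227 and 218 TPM in knockout-labelled animals. Rpl31 gave -0.39 ± 0.453, Rpl21 gave 0.25 ± 0.295 and Rpsa gave 0.17 ± 0.370. In control TRAP the ends were Rpl18, Rplp0 (0.31 ± 0.442) and Rps3 (0.12 ± 0.447) above, and Rpl41 (-1.06 ± 0.785), Rpl22l1 (-0.48 ± 0.446) and Rpl24 (-0.63 ± 0.595) below. In knockout-labelled TRAP they were Rpl21 (0.45 ± 0.373), Rps7 (0.31 ± 0.368) and Rpl14 (0.29 ± 0.359), all higher in 3 of 3 animals, and Rpl41 (-0.72 ± 0.641), Rpl31 (-0.38 ± 0.573) and Rpl39l (-0.48 ± 0.768). A total of 32 of 85 members were higher in 3 of 3 animals there.

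Genotype was compared within each oxygen level and fraction, 3 knockout-labelled against 2 control animals. In TRAP, knockout-labelled animals had more ribosomal protein mRNA on average, and no member passed. In hypoxia TRAP the median difference over members was 0.57 (log2) against 0.060 over all genes, 80 of 85 members were above 0 (against 53.2% of 13522 genes), and the 2 groups did not overlap for 20 members, all with the knockout-labelled group above (background 9.36% above and 6.94% below). None passed in limma (background 0%), while 9 had an unadjusted p under 0.05 (background 2.67% higher), 16 with the block (background 2.4% higher). The result turned on the 2 controls: without WT-280 the median was -0.12, and without WT-281 it was 1.24. In normoxia TRAP the median was 0.38, 75 of 85 were above 0 (against 52.6% of genes), and 23 members had the knockout-labelled group above without overlap (background 9.85%) and 1 below (background 9.67%). No member passed or had an unadjusted p under 0.05 (1 higher and 0 lower with the block, background 2.71% higher). The median ran from 0.096 to 0.63 when 1 animal was left out. The fibroblast, megakaryocyte and neutrophil marker lists had lower values in the knockout-labelled group beside this. Fibroblast markers summed to 77.1 and 144 TPM in controls against 9.77, 4.64 and 84.3 TPM in knockout-labelled animals in hypoxia TRAP and to 113 and 76.9 TPM in controls against 13.9, 11.8 and 50.7 TPM in knockout-labelled animals in normoxia TRAP, with the groups overlapping in hypoxia through KO-179. All 5 of them that were tested were below 0 in both, with medians of -2.32 and -1.99, and 3 and 1 had an unadjusted p under 0.05. Both megakaryocyte markers tested were below 0 (medians -1.34 and -1.13), as was the neutrophil marker S100a8 (-1.55 and -2.27). None of these markers passed, and their part in the result was not tested.

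Rpl13 had the highest t value in hypoxia TRAP. It was 1273 and 1748 TPM in controls against 3068, 3605 and 2799 TPM in knockout-labelled animals. The groups did not overlap, and the difference was 1.07 ± 0.381 (limma adjusted p = 1). Rps6 was 549 and 439 TPM in controls against 899, 1177 and 994 TPM in knockout-labelled animals, a difference of 1.05 ± 0.379 without overlap. Rpl15 gave 1.17 ± 0.433, also without overlap. At the lower end Rps27l gave -0.44 ± 0.531, and Rpl39l and Rpl23 gave -0.25 ± 0.858 and -0.071 ± 0.486. In normoxia TRAP, Rplp0 (0.81 ± 0.403), Rps3a1 (0.77 ± 0.403) and Rpl7 (0.78 ± 0.406) had the highest t values, with no overlap between groups. Rps27l was 3130.3 and 3918 TPM in controls against 2630.2, 1084 and 2222 TPM in knockout-labelled animals in normoxia TRAP, the one member with the knockout-labelled group below (-0.92 ± 0.531, adjusted p = 0.922). Rpl22l1 gave -0.35 ± 0.407 and Rpl38 gave -0.33 ± 0.674.

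In input the genotypes were closer. The median over members was -0.19 in normoxia, with 17 of 85 above 0 (background 57.2% of 13901 genes), and 0.045 in hypoxia, with 46 above 0 (background 69.7%). Among genes of at least 100 TPM, 44.5% and 50.9% were above 0, with medians of -0.072 and 0.011. Both medians over members turned sign when 1 animal was left out, with values of -0.47 to 0.20 and -0.32 to 0.43. Fibroblast markers were above 0 for 0 of 6 in normoxia and 1 of 6 in hypoxia. Macrophage markers were above 0 for 5 of 6 in normoxia (median 0.45) and 5 of 6 in hypoxia (median 0.90). The part of these markers in the result was not tested. No member passed, and 0 in normoxia and 2 in hypoxia had an unadjusted p under 0.05 without the block. With it the counts were 0 in normoxia and 2 higher and 2 lower in hypoxia (background 5.28% and 0.763%). In normoxia 130 of 13901 genes were higher and 174 lower at that threshold without the block, and 111 and 144 with it. Groups did not overlap for 4 members in normoxia (background 9.42% above and 5.75% below), and in hypoxia for 11 above and 2 below (background 18.4% and 4.48%). The 2 with an unadjusted p under 0.05 in hypoxia input were Rpl3, higher (background 5.7% higher), and Rpl39l, lower (background 0.777% lower). Rpl3 was 302 and 484 TPM in controls against 699.7, 925 and 651 TPM in knockout-labelled animals, a difference of 0.97 ± 0.425 (adjusted p = 0.736). Rpl39l was 29.2 and 8.27 TPM in controls against 5.10, 2.78 and 3.28 TPM in knockout-labelled animals, a difference of -1.86 ± 0.798 (adjusted p = 0.736). Rpsa (0.78 ± 0.382) was also above without overlap and Rps27l (-1.14 ± 0.599) below, and Rpl38 gave -0.66 ± 0.696. In normoxia input Rpl7 (0.39 ± 0.372) and Rpl3 (0.33 ± 0.425) were at the upper end, and Rpl39l (-1.20 ± 0.798), Rpl21 (-0.47 ± 0.385) and Rpl22l1 (-0.48 ± 0.426) at the lower.

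The difference between genotypes in the hypoxia change was tested as an interaction. No member passed in input or TRAP, and 0 had an unadjusted p under 0.05 without the block. At that threshold 218 of 13901 genes were higher and 43 lower in input, and 145 of 13522 higher and 139 lower in TRAP. With the block, 7 members were higher and 0 lower in input (background 5.25% and 1.16%), and 2 higher and 1 lower in TRAP (background 2.46% and 3.1%). The median interaction was 0.26 in input (0.25 over all genes) and 0.25 in TRAP (0.025). Over genes of at least 100 TPM it was 0.058 in input and 0.10 in TRAP. Leaving out 1 animal gave medians over members of 0.042 to 0.49 in input and -0.18 to 0.65 in TRAP. Without only the hypoxia input library of WT-280 the input value of the members was -0.096. At the upper end Rpsa gave 0.92 ± 0.540 in input (adjusted p = 1.00), and Rpl24 gave 0.79 ± 0.768 in TRAP (adjusted p = 1.00). At the lower end were Rps27l (-0.69 ± 0.847), Rpl22 (-0.69 ± 1.12) and Rpl39l (-0.65 ± 1.13) in input and Rpl18 (-0.79 ± 0.896) and Rpl39l (-0.51 ± 1.21) in TRAP. In input, 10 members were lower in hypoxia in both controls and higher in all knockout-labelled animals (against 3.88% of genes) and 0 the reverse (1.35%), and in TRAP 10 and 1 (2.55% and 2.13%). These values rest on 2 controls that moved apart in hypoxia.

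Other genes of the pathway were read the same way between fractions, with the animal as a block. Of 18 regulators of TOP mRNAs in the mTORC1, LARP1 and 4E-BP branches (median -0.22), 1 was higher and 1 lower in TRAP. Eif4ebp1, which encodes the mTORC1-controlled translation inhibitor 4E-BP1, was higher by 0.50 ± 0.115 (adjusted p = 0.0184). Larp1, whose protein binds the TOP tract and cap, gave -0.89 ± 0.225 (adjusted p = 0.0273). Of 17 other TOP mRNAs, none was higher and 1 lower (median -0.20), and this was Eef2, the ribosome translocase, at -0.81 ± 0.150 (adjusted p = 0.00605). Of 22 ribosome biogenesis factors (median -0.26), none was higher and 2 were lower, the rRNA-processing factor Bop1 at -0.95 ± 0.269 (adjusted p = 0.0434) and the ribosomal DNA transcription factor Ubtf at -0.97 ± 0.270 (adjusted p = 0.0418). Of 78 mitochondrial ribosomal proteins, 6 were higher and none lower (median 0.081), with Mrpl42 at 0.79 ± 0.159 (adjusted p = 0.00894). These shares were 5.56% higher and 5.56% lower for the regulators, 5.88% lower for other TOP mRNAs, 9.09% lower for biogenesis factors and 7.69% higher for mitochondrial ribosomal proteins. The background was 1.55% of all genes higher and 5.89% lower, and 14% and 9.3% among genes of at least 100 TPM. These genes were named because they passed, and their calls were not repeated without single animals. Without the block none of these 4 lists had a call here, and in hypoxia over 5 animals none had one with or without it.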

How the data were processed

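TPM values were deposited by the authors in 2 tables, 1 for input and 1 for TRAP, each summing to 1000000 per library. HISAT, DESeq2 and GRCm38 are named in the submitters' processing notes without versions or roles, and nothing in those notes or the tables says how TPM was computed. The 20 columns of per-animal ratios were not used. Of 52636 gene identifiers, 52403 matched the gene name table, and 27 symbols had been turned into dates.

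Genes reaching 1 TPM in 2 or more libraries of a fit were tested with limma 3.58.1 (R 4.3.3) on log2(TPM + 1), with trended empirical Bayes, two-sided, and Benjamini-Hochberg adjustment over all genes tested (13901 in input, 13522 in TRAP and 14842 in the joint fit of both tables). The threshold was an adjusted p of 0.05. Fold changes on this scale understate the change of low genes. Each fit held 1 mean per group of genotype, oxygen level and fraction. Alternatives were other pseudocounts (0.1 and 5), no filter, quantile normalization, no trend, only the libraries compared, each animal left out, and the animal as a replicate block. The fits were tested on simulated data. Python 3.11.15 with pandas 2.3.3, numpy 2.4.6 and matplotlib 3.10.9 made the summaries and plots.

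The labels give the same animal number to input and TRAP and to both oxygen levels, so the numbers pair the libraries. Deviations from group means correlated within animals, over genes, at 0.28 to 0.76 in input, 0.23 to 0.58 in TRAP, and 0.15 to 0.64 between input and TRAP. Each animal gave 1 culture per condition. Without the block, p-values measure the spread between libraries within the groups and treat libraries of the same animal as independent. They therefore do not measure the spread between the 5 animals alone. With the block, the normoxia and hypoxia pairs of TRAP and input from an animal still count as independent.

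Named members were Rpl10a, the 6 highest and 6 lowest by mean TPM, the 5 with the largest and smallest SD, the paralogs with their parents, members with known other duties, and in each comparison those that passed or, below 3, the 3 with the largest t each way. Members that passed only with the block were named after their values were seen. Some genes that this rule picks are not reported here. The members and gene lists were chosen with earlier results of these data known.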

Additional observations from a re-analysis of the deposited data

Results flagged for a closer look

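In 10 members of the input libraries, hypoxia values were lower than normoxia in both controls and higher in all 3 knockout-labelled animals (Rpl10, Rpl11, Rpl13, Rpl19, Rpl36, Rpl4, Rpl8, Rps3, Rps7 and Rpsa), against 3.88% of all genes, and 0 members showed the reverse, against 1.35%. The difference itself, tested as an interaction in limma, did not pass for any of them. It was 0.92 (log2) for Rpsa, with an adjusted p of 1 and of 0.733 with the animal as a block, and 0.74 for Rps7, also with 0.733 under the block.

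In TRAP, 10 members had this pattern (Rpl13, Rpl13a, Rpl19, Rpl24, Rpl34, Rpl5, Rpl6, Rps18, Rps3a1 and Rps6), against 2.55% of genes. The interaction was 0.79 for Rpl24 and 0.47 for Rps6, and neither passed. Rplp0 was the 1 member with the reverse pattern, against 2.13% of genes, with an interaction of -0.45 that did not pass. The directions rest on 2 controls.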

How the results depend on the processing

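With the animal as a replicate block, the genes passing went from 102 to 1104 for TRAP minus input over 4 groups, from 34 to 474 in normoxia and from 13 to 61 in hypoxia. Members passing went from 0 to 9 over 4 groups and from 0 to 1 in normoxia, and the block changed no other call on the members. With the block and quantile normalization together, chosen after seeing the data, 638, 178 and 60 genes and 7, 1 and 0 members passed. Quantile normalization alone left 61, 7 and 5 genes, and with it or with both together the hypoxia value of Rpl10a over 5 animals in TRAP was -0.0038.

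Across 243 alternative values of the count of members passing, 235 were 0, and 34 of 1630 values of named members changed sign. Without the filter the genes passing were 2 for hypoxia in controls in input, 13 for the same in TRAP, 1 for genotype in each of normoxia and hypoxia input, 2 and 10 for genotype in normoxia and hypoxia TRAP, 21 for TRAP minus input in hypoxia and 14 for its hypoxia change. A pseudocount of 0.1 gave 1 gene each for the interaction in TRAP and for TRAP minus input in hypoxia, and a pseudocount of 5 gave 1 each for genotype in normoxia and hypoxia TRAP. Fitting only the libraries compared gave 1 gene each for hypoxia in controls in input, genotype in hypoxia input and TRAP minus input in hypoxia.

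Without only the hypoxia input library of WT-280, Rps4l turned to -0.42 for hypoxia in controls, Rpl39l turned to 0.20 in the interaction, and 8 genes passed for TRAP minus input in hypoxia. Without only the normoxia input library of KO-84, hypoxia in knockout-labelled input gave 0.32 for Rpl22 and 0.065 for Rps24, and the interaction gave 0.077 for Rpl22 and 0.15 for Rpl39l. The genes passing were then 1 for genotype in hypoxia input and 7 and 6 for TRAP minus input in normoxia and hypoxia.

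Leaving out each animal in turn, with and without the block for TRAP minus input (the blocked repeats were chosen after seeing the data), the genes passing ranged over 0 to 1 for hypoxia in knockout-labelled input, 0 to 1 for hypoxia over 5 animals in input, 0 to 2 for genotype in normoxia input, 0 to 1 for genotype in normoxia TRAP, 0 to 2 for genotype in hypoxia TRAP, 30 to 888 for TRAP minus input over 4 groups, 0 to 444 for TRAP minus input in normoxia, 0 to 100 for TRAP minus input in hypoxia and 0 to 11 for the hypoxia change of TRAP minus input. Members passing ranged over 0 to 10 for TRAP minus input over 4 groups. The median over members took both signs in 10 of 16 comparisons. It ranged over -0.12 to 1.24 for genotype in hypoxia TRAP, -0.32 to 0.43 in hypoxia input and -0.47 to 0.20 in normoxia input, and over -0.18 to 0.65 for the interaction in TRAP. For hypoxia it ranged over -0.25 to 0.19 in TRAP and -0.19 to 0.025 in input over 5 animals, -0.54 to 0.28 and -0.42 to 0.045 in controls, and -0.062 to 0.13 in knockout-labelled input. For the hypoxia change of TRAP minus input it ranged over -0.088 to 0.17. Over all alternatives, 20 of 243 medians had the opposite sign. The sign of some named members turned. Hypoxia in control input gave -0.064 to 0.83 for Rps4l, and in knockout-labelled input -0.89 to 0.077 for Rpl22. The interaction gave Rpl39l values of -1.51 to 0.20 in input and -1.82 to 0.80 in TRAP. Hypoxia in control TRAP gave -2.64 to 0.51 for Rpl41, -0.29 to 0.081 for Rpl10a and -0.11 to 0.35 for Rps3. In knockout-labelled TRAP it gave -1.20 to 0.19 for Rpl41, and over 5 animals in TRAP -0.010 to 0.36 for Rpsa and -0.082 to 0.10 for Rpl10a. Genotype gave -0.10 to 0.64 for Rpl10a in normoxia input and -0.79 to 0.0036 for Rpl38 in normoxia TRAP. In hypoxia TRAP it gave -0.89 to 0.012 for Rps27l, -0.50 to 0.36 for Rpl23 and -0.58 to 0.0015 for Rpl39l. TRAP minus input gave -0.29 to 0.028 for Rpl8 over 4 groups and -0.19 to 0.024 for Rpl15 in hypoxia.

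The cause of these changes was not tested. Depth is unknown in TPM tables, so no counting limit can be given for the low members, and with 2 controls a single animal carries much of every genotype value.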

Other observations

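Outside the symbol rule, genes whose level closely followed the mean log2 profile of the 85 tested members over the 20 libraries were Cand2, with a Pearson r of 0.940, Gm4149 with 0.939, Snhg8 with 0.933 and Gm9843 with 0.932. They were among the first 5 of 4078 genes with a mean of at least 20 TPM. Snhg8 is a snoRNA host gene. The libraries share animals and the values share library totals, so these are descriptions. Cand2 had a mean of 20.8 TPM, close to that minimum.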
